A study of Mus musculus with 12 samples.

Results

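Rhox5, Rhox6 and Rhox9, 3 homeobox genes of the Rhox cluster on the mouse X chromosome, were followed in RNA sequencing libraries of mouse embryonic stem (ES) cells entering mTOR inhibitor (mTORi)-induced dormancy. They are 3 of 54446 gene identifiers listed for each library, and were found by their gene symbol. They were chosen by their TPM levels in these libraries, over both lines and all times, so those levels and their differences are given as a description without a test. Another 39 listed genes carry a Rhox symbol.

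The 12 libraries form 6 groups of 2. Cells of the lines labelled KH and DNMT3ABKO were collected without inhibitor (0 h) or after 72 or 144 h in INK128, an inhibitor of the kinase mTOR. KH is the wild type, which the study's methods name KH2, although the labels put E14 in front of the names of both lines. DNMT3ABKO cells lack Dnmt3a and Dnmt3b, the enzymes that lay down DNA methylation on unmethylated DNA. Each genotype is represented by 1 line, and cells of both were kept on mitotically inactive feeder fibroblasts and sorted as viable single cells before RNA was extracted. Untreated cells exist at 0 h alone, so time in culture and mTORi cannot be told apart. The study states that its experiments were independent repeats and that the time points of a repeat were handled together, while the labels give only replicate numbers. Levels are in TPM, a share of the transcripts of a library that corrects reads for transcript length and gives every library the same total. With spike-in scaling, the study reports globally lower transcription under mTORi in both lines. A rise or fall in TPM here is therefore a change in share and not in RNA per cell. How many reads stand behind a value is unknown, since TPM does not keep the depth.

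The Rhox (reproductive homeobox) genes encode homeodomain transcription factors known for their expression in placenta, germ cells, testis and ovary. In the embryo proper the cluster is known to be silenced after implantation, when its promoters acquire DNA methylation. Rhox5, first described as Pem, is the founding member of the family and is made in extraembryonic tissue and in cultured ES cells. Rhox6 (Psx1) and Rhox9 (Psx2 or Gpbox) were first described as placental and germ cell genes. DNA methylation was not analysed here, only RNA.

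Between 15178 and 15811 genes per library reached 1 TPM. Over the 15727 genes that averaged 1 TPM or more, the correlation of replicates was 0.985 for untreated DNMT3ABKO cells and between 0.993 and 0.996 elsewhere, and genes are not independent replicates. The replicates of DNMT3ABKO cells at 0 h thus differed most. For the line differences of the 3 genes at 0 h, values without either replicate are also given. The same was done for the Rhox5 changes from 0 h in DNMT3ABKO cells, but not for every difference that rests on these replicates. Dnmt3a was lower in DNMT3ABKO than in KH cells at 0, 72 and 144 h, by log2 differences of -2.48, -2.24 and -2.39 (limma adjusted p = 0.000464, 0.000424 and 0.000205), and Dnmt3b by -3.21, -2.78 and -3.39 (adjusted p = 4.59e-09, 8.00e-09 and 7.25e-10). The summed TPM of 16 ES cell markers was between 5025 and 7647 in every library. Trophoblast, which expresses Rhox genes in the embryo, was covered by 18 listed genes, of which 12 averaged 1 TPM or more. Their summed TPM was between 103 and 266 in every library. Low genes of the list were Tpbpa, at 0 in 12 libraries, Prl3d1, at 0 in 11, and Cdx2 and Hand1, with maxima of 1.05 and 0.809 TPM. The list thus held expressed and near-absent genes, and whether trophoblast cells were present was not tested.

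Rhox5 (ENSMUSG00000095180.8; mm10, chrX:37804842-37808876, plus strand, a protein-coding gene with 4 coding exons) was the most abundant Rhox gene in every group and the member with the largest difference between the lines. It is a divergent homeobox gene, also known from Sertoli cells of the testis, and its coding sequence aligned to those of Rhox6 and Rhox9 with 48.3% and 49.9% identical positions. In KH cells Rhox5 was at 122 and 119.7 TPM at 0 h, at 33.0 and 35.5 TPM at 72 h and at 7.95 and 5.79 TPM at 144 h. DNMT3ABKO cells held 533 and 416 TPM of it at 0 h, 183 and 178 TPM at 72 h and 37.7 and 38.1 TPM at 144 h. The libraries of the 6 groups did not overlap anywhere, and at each time the DNMT3ABKO libraries were the higher ones.

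The group means of Rhox5 were 121 ± 1.71, 34.2 ± 1.78 and 6.87 ± 1.53 TPM (SD, n = 2) in KH cells and 475 ± 82.9, 180.6 ± 3.01 and 37.9 ± 0.307 TPM (SD, n = 2) in DNMT3ABKO cells. From highest to lowest, the groups ran DNMT3ABKO at 0 h, DNMT3ABKO at 72 h, KH at 0 h, DNMT3ABKO at 144 h, KH at 72 h and KH at 144 h, with no overlap between neighbours. DNMT3ABKO cells after 72 h of mTORi thus still held more Rhox5 RNA than untreated KH cells, and after 144 h more than KH cells at 72 h.

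**Figure D1:**
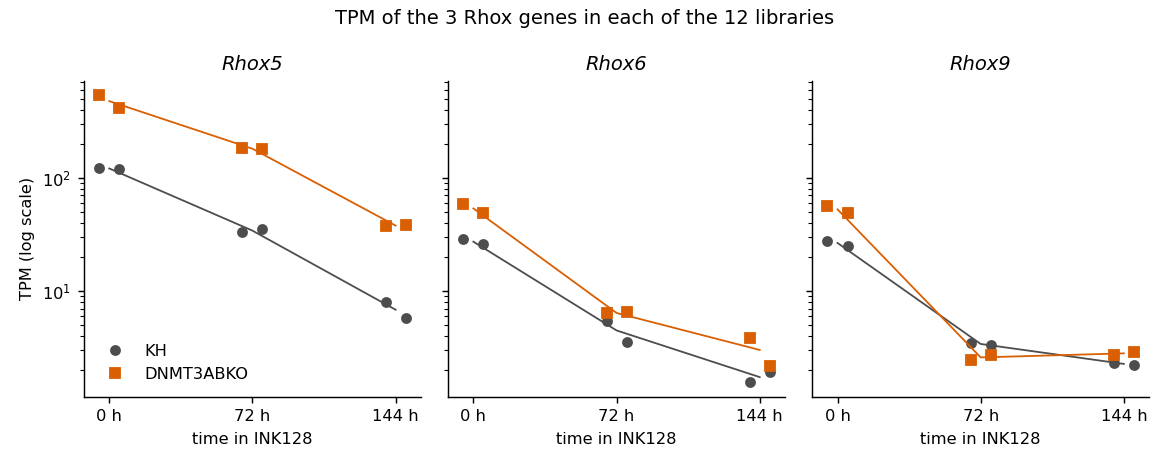
TPM (log axis) of Rhox5, Rhox6 and Rhox9 against time in INK128, with a point for each of the 12 libraries (circles, KH; squares, DNMT3ABKO) and lines through the group means. The DNMT3ABKO points of Rhox5 lie above the KH points at every time, whereas those of Rhox9 lie below them at 72 h.

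Rhox6 (ENSMUSG00000006200.3; chrX:37826910-37829857, plus strand) and Rhox9 (ENSMUSG00000068048.8; chrX:37899097-37901770, minus strand) are close copies of each other in opposite orientation. Rhox5 lies 18.0 kb before Rhox6, and Rhox6 lies 69.2 kb before Rhox9, with 3 other genes, Rhox7a, Rhox8 and Rhox7b, in between. The coding sequences of Rhox6 and Rhox9 are each 681 bases long and were identical at 617 positions (90.6%), with a longest identical run of 161 bases. Reads from such runs can be assigned to either gene, so the split between them is uncertain, and their sum is given as well. The coding parts of exons 3 and 4, where the homeobox ends, show how the copies differ (mm10 reference, 5′ to 3′ on the strand of each gene, with the 20 mismatched positions of this 139-base stretch in capitals). In Rhox6 these exons are chrX:37828415-37828460 and chrX:37829624-37829716, and in Rhox9 they are chrX:37900280-37900325 and chrX:37899207-37899299.
Rhox6: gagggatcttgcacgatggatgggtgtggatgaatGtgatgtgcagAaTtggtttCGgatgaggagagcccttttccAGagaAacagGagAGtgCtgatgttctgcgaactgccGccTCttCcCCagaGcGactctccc
Rhox9: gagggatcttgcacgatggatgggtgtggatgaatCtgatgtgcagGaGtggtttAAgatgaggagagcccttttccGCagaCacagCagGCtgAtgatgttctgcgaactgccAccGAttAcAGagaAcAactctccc
The mismatches crowd in the later part of the stretch, while its start is shared.

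Rhox6 was at 28.8 and 25.9 TPM in KH cells at 0 h, at 5.47 and 3.54 TPM at 72 h and at 1.57 and 1.93 TPM at 144 h. In DNMT3ABKO cells it was at 58.3 and 49.1 TPM, at 6.36 and 6.50 TPM and at 3.89 and 2.18 TPM at the same times. The DNMT3ABKO libraries were above the KH libraries at each time, by a wide margin at 0 h and by a narrow one later. The group means were 27.3 ± 2.04, 4.51 ± 1.36 and 1.75 ± 0.254 TPM (SD, n = 2) in KH cells and 53.7 ± 6.51, 6.43 ± 0.0972 and 3.03 ± 1.21 TPM (SD, n = 2) in DNMT3ABKO cells.

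Rhox9 was at 28.0 and 25.3 TPM in KH cells at 0 h, at 3.51 and 3.34 TPM at 72 h and at 2.34 and 2.22 TPM at 144 h. In DNMT3ABKO cells it was at 56.4 and 49.0 TPM at 0 h, close to the Rhox6 level, then at 2.45 and 2.76 TPM at 72 h and at 2.73 and 2.93 TPM at 144 h. The DNMT3ABKO libraries were therefore above KH at 0 h and 144 h and below KH at 72 h. The group means were 26.6 ± 1.92, 3.42 ± 0.114 and 2.28 ± 0.0840 TPM (SD, n = 2) in KH cells and 52.7 ± 5.27, 2.61 ± 0.218 and 2.83 ± 0.146 TPM (SD, n = 2) in DNMT3ABKO cells. Below the 2 untreated groups, which came first and second for both genes, the order of the groups was less settled. For Rhox6, KH at 72 h overlapped DNMT3ABKO at 144 h, and for Rhox9, DNMT3ABKO at 144 h overlapped DNMT3ABKO at 72 h.

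The sum of Rhox6 and Rhox9 had means of 54.0, 7.93 and 4.03 TPM in KH cells and 106, 9.04 and 5.86 TPM in DNMT3ABKO cells. At 72 h the summed libraries overlapped between lines, with 8.98 and 6.89 TPM in KH and 8.81 and 9.26 TPM in DNMT3ABKO cells. The ratio of the sums, DNMT3ABKO over KH, was 1.97 at 0 h, 1.14 at 72 h and 1.45 at 144 h. A lower level in DNMT3ABKO cells at 72 h was thus seen for Rhox9 by itself and not for the sum.

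The comparison of the lines asks how the genes differ where de novo methyltransferases are missing. In means, Rhox5 was 3.92-fold higher in DNMT3ABKO than in KH cells at 0 h, 5.28-fold at 72 h and 5.52-fold at 144 h. Rhox6 had ratios of 1.96, 1.43 and 1.74, and Rhox9 of 1.98, 0.761 and 1.24. On the log2(TPM + 1) scale, which understates differences of low genes, Rhox5 differed by 1.95, 2.37 and 2.32 at 0, 72 and 144 h (SE 0.13, from the fit of all genes). Rhox6 differed by 0.95, 0.45 and 0.52 (SE 0.21) and Rhox9 by 0.96, -0.30 and 0.22 (SE 0.10). Without the first or the second DNMT3ABKO replicate at 0 h, the difference at 0 h was 1.77 or 2.13 for Rhox5, 0.82 or 1.07 for Rhox6 and 0.86 or 1.06 for Rhox9. The Rhox6 difference at 144 h was 0.21 without the first and 0.83 without the second DNMT3ABKO replicate, and at 72 h it was 0.71 without the first and 0.20 without the second KH replicate, so at these times it rested on single libraries.

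All 3 genes had DNMT3ABKO libraries above the KH libraries at 0 h and at 144 h, where 17.0% and 29.7% of all 15727 genes did. At 72 h this held for 2 of 3 (30.1% of all genes), and 1 of 3 lay the other way (40.0% of all genes). Since the genes were chosen with these values known, nothing is read from the counts. Both lines were kept on feeder fibroblasts, whose part in the line differences was not tested. The summed TPM of 19 fibroblast markers was 1.08 times as high in DNMT3ABKO as in KH cells at 0 h, 0.786 times at 72 h, where the libraries of the lines did not overlap, and 1.07 times at 144 h. The summed trophoblast markers were 0.545, 1.17 and 0.635 times as high, and their part in the line differences was not tested either.

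**Figure D2:**
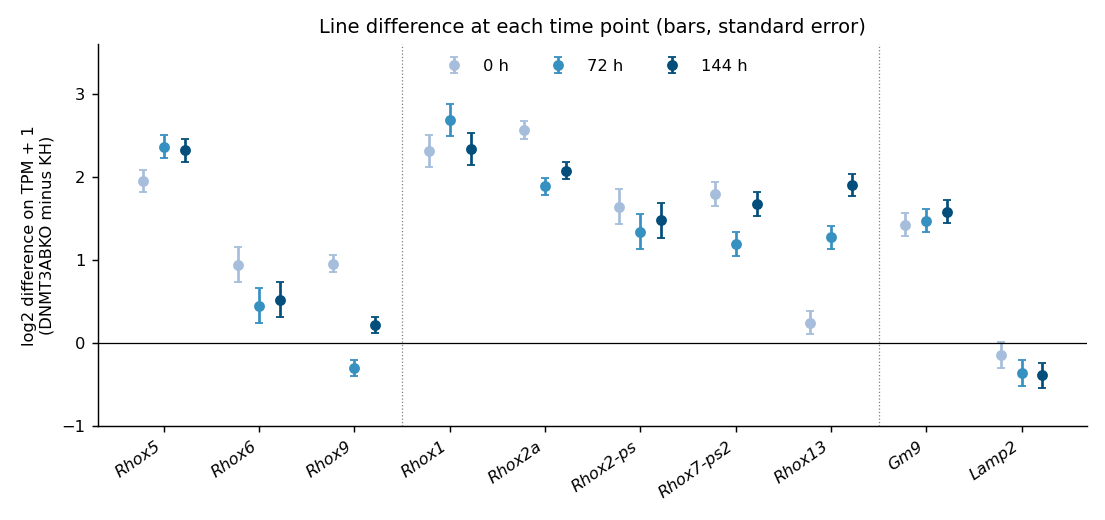
log2 difference on TPM + 1 between DNMT3ABKO and KH cells (y axis; above 0, higher in DNMT3ABKO) for Rhox5, Rhox6 and Rhox9, for 5 further Rhox genes and for the nearest neighbours Gm9 and Lamp2, with a point per time and bars for the standard error. Rhox5 stays near 2 at all times, Rhox6 and Rhox9 near 1 at 0 h alone, and Rhox13 moves from 0.25 at 0 h to 1.90 at 144 h.

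All 3 genes had lower levels under mTORi in both lines. Rhox5 stood at 28.3% of its 0 h mean after 72 h and at 5.68% after 144 h in KH cells, and in DNMT3ABKO cells at 38.0% and 7.99%. Its level was lower after each interval, with log2 differences of -1.79 from 0 to 72 h and -2.17 from 72 to 144 h in KH cells and of -1.38 and -2.22 in DNMT3ABKO cells (SE 0.13). Without the first or the second DNMT3ABKO replicate at 0 h, the 72 h difference was -1.20 or -1.56 and the 144 h difference against 0 h was -3.42 or -3.78.

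For Rhox6 and Rhox9 most of the difference lay in the first 72 h. Rhox6 was at 16.5% of its 0 h mean after 72 h and at 6.39% after 144 h in KH cells, and in DNMT3ABKO cells at 12% and 5.65%. Its log2 changes from 0 to 72 h were -2.38 in KH and -2.88 in DNMT3ABKO cells, and from 72 to 144 h they were -0.98 and -0.91 (SE 0.21). Rhox9 was at 12.9% and 8.58% of its 0 h mean in KH cells, against 4.95% and 5.37% in DNMT3ABKO cells. Its log2 changes from 0 to 72 h were -2.64 and -3.89, and from 72 to 144 h they were -0.43 and 0.09 (SE 0.10), so that in DNMT3ABKO cells Rhox9 was not lower at 144 h than at 72 h. All 3 genes had lower libraries at 72 h and at 144 h than at 0 h without overlap, where 32.0% and 35.2% of all genes did so in the KH line and 28.9% and 33.4% in the DNMT3ABKO line. From 72 to 144 h this held for 3 of 3 in KH cells (41.6% of all genes) and for 2 of 3 in DNMT3ABKO cells (43.9% of all genes).

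The difference between the lines in the change from 0 h had opposite signs among the genes. For Rhox5 it was 0.41 at 72 h and 0.37 at 144 h (SE 0.19), a smaller decrease in DNMT3ABKO cells. For Rhox6 it was -0.49 and -0.42 (SE 0.30), and for Rhox9 -1.25 and -0.74 (SE 0.14), a larger decrease in DNMT3ABKO cells. For Rhox9 the DNMT3ABKO cells started 1.98-fold higher and ended close to KH cells.

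Markers of the feeder fibroblasts fell over the same time. Their summed TPM ranged from 2518 to 2767 at 0 h, 814 to 829 at 72 h and 145 to 151 at 144 h in KH cells, and from 2795 to 2903, 609 to 683 and 154 to 163 in DNMT3ABKO cells, with none of the 19 markers listed at 0 in any library. limma called 18 of 18 tested markers lower than at 0 h in KH cells at 72 h (19.5% of all genes) and 144 h (23.9%) and in DNMT3ABKO cells at 72 h (21.6%) and 144 h (26.2%). As a share of 0 h this was 31.1% and 5.61% in KH cells, then 22.7% and 5.56% in DNMT3ABKO cells, against 28.3%, 5.68%, 38.0% and 7.99% for Rhox5. The part of the feeders in the lower levels of the Rhox genes was not tested. In bulk RNA, fewer cells of a type and less RNA per cell cannot be told apart. Other cell type markers were lower over this time as well. Of 10 macrophage genes, 7 and 10 were called lower at 72 and 144 h in KH cells, against 8 and 9 in DNMT3ABKO cells, and their sum stood at 12.3% and 19.8% of 0 h at 144 h. Of 8 tested primitive endoderm genes, 5 and 6 were called lower in each line, and their sum stood at 27.8% and 25.5% at 144 h. Of 12 tested trophoblast genes, 9 and 7 were called lower in KH and 5 and 9 in DNMT3ABKO cells, and the sum of the list stood at 64.9% and 75.6%. Of 9 tested germ cell genes, 3 and 3 were called lower in KH and 5 and 6 in DNMT3ABKO cells. The part of these cell types was not tested either.

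The 5 other Rhox genes that averaged 1 TPM or more had courses of their own. At 144 h Rhox1 stood at 87.0% of its 0 h mean in KH and 91.6% in DNMT3ABKO cells, Rhox13 at 91.9% and 590.3%, Rhox2a at 19.9% and 50.4%, and the pseudogenes Rhox7-ps2 at 19.9% and 59.6% and Rhox2-ps at 0 and 49.6%. Of these, all but Rhox1 averaged under 1 TPM in KH cells.

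**Figure D3:**
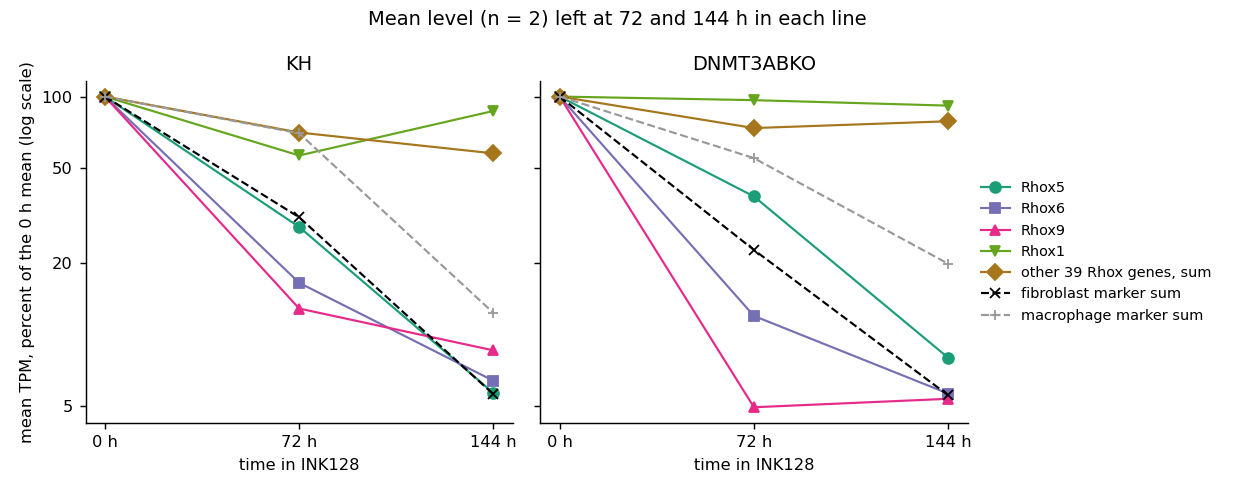
Group mean at 72 h and 144 h as a percentage of the 0 h mean (log axis) in KH (left) and DNMT3ABKO cells (right), for Rhox5, Rhox6, Rhox9 and Rhox1, for the sum of the 39 Rhox genes other than the 3 members, and for the summed TPM of fibroblast and macrophage markers. Rhox5, Rhox6 and Rhox9 end between 5.37% and 8.58%, near the fibroblast sum at 5.61% and 5.56%, the macrophage sum ends at 12.3% and 19.8%, and the sum of the 39 genes at 57.7% and 78.8%.

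The 3 genes made up most of the RNA of the cluster. They held 97.8% and 97.4% of the TPM summed over all 42 Rhox genes in untreated KH cells, 92.5% and 94.0% after 72 h and 79.7% and 83.6% after 144 h. In DNMT3ABKO cells they held 93.4% and 92.9%, 86.4% and 85.3%, and 58.2% and 55.4%. The sum over all Rhox genes had means of 179, 45.2 and 13.4 TPM in KH cells and 623, 221 and 77.1 TPM in DNMT3ABKO cells, 3.48, 4.89 and 5.76 times as high. The sum over the other 39 genes had means of 4.31, 3.04 and 2.49 TPM in KH cells and 42.3, 31.2 and 33.3 TPM in DNMT3ABKO cells, which is 9.83, 10.3 and 13.4 times as high. The rest of the family was low in KH cells at every time and stood at 57.7% of its 0 h sum in KH and 78.8% in DNMT3ABKO cells at 144 h, far above the 5.37% to 8.58% of Rhox5, Rhox6 and Rhox9.

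Of these 39 genes, 10 were listed at 0 in all 12 libraries and 29 were above 0 in at least 1 library. Both DNMT3ABKO libraries lay above both KH libraries for 25, 23 and 25 of the 29 at 0, 72 and 144 h, where 13.6%, 22.6% and 22.7% of all 37364 genes above 0 somewhere did. At 144 h, 17 genes were listed at 0 in both KH libraries and above 0 in both DNMT3ABKO libraries. No share over all genes was taken for this rule, so nothing is read from that count. Of the 39 genes, 5 reached a mean of 1 TPM over the 12 libraries, and 4 of these did so through the DNMT3ABKO libraries alone. No count of line differences among the 5 is therefore given. The p-values of Rhox genes given next therefore come from a limma fit of all 37364 genes with no filter on low values. That fit held 29 of the 39 genes and called 16, 16 and 17 of the 29 higher in DNMT3ABKO cells at 0, 72 and 144 h. Of all genes in it, 2.17%, 5.44% and 7.68% were called higher. The 29 include near-identical copies of Rhox2 and Rhox4 that can share reads, so they are not independent of each other.

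Rhox1 (ENSMUSG00000071773.4), the first gene of the cluster, was at 0.547 to 1.48 TPM in the 6 KH libraries and at 8.67 to 11.8 TPM in the 6 DNMT3ABKO libraries. It was higher in DNMT3ABKO cells by log2 differences of 2.31, 2.68 and 2.34 at 0, 72 and 144 h (limma adjusted p = 0.00129, 0.000223 and 0.000223). Its change from 0 to 144 h was not called in either line, at -0.13 in KH (95% CI -0.56 to 0.29) and -0.11 in DNMT3ABKO cells (95% CI -0.53 to 0.32). Rhox1 thus differed between the lines by as much as Rhox5 on this scale, at a level that moved little over time.

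Rhox2a (ENSMUSG00000051827.11) was at 0.351 and 0.334 TPM in KH cells at 0 h, at 0 in both libraries at 72 h and at 0.136 and 0 TPM at 144 h. In DNMT3ABKO cells it was at 7.07 and 6.84, 2.60 and 2.79, and 3.46 and 3.55 TPM, and limma called it higher at each time, by 2.57, 1.89 and 2.08 (adjusted p = 1.80e-05, 3.08e-05 and 4.77e-06). Rhox2 and Rhox4 are arrays of near-identical copies among which reads can be shared, so single copies are uncertain. The 8 Rhox2 copies summed to means of 0.488, 0 and 0.10 TPM in KH cells and 14.4, 6.81 and 8.43 TPM in DNMT3ABKO cells. The 8 Rhox4 copies, of which the founder was first described as an ES cell homeobox gene, summed to 1.02, 0.0403 and 0 TPM in KH cells and 7.53, 3.76 and 3.89 TPM in DNMT3ABKO cells. The pseudogenes Rhox2-ps and Rhox7-ps2 were higher in DNMT3ABKO cells by 1.64, 1.34 and 1.48 and by 1.79, 1.19 and 1.68 (adjusted p between 0.000252 and 0.0105). From 0 to 144 h, Rhox2a, Rhox2-ps and Rhox7-ps2 were called lower in DNMT3ABKO cells, by log2 differences of -0.82, -0.72 and -0.58 (adjusted p = 0.000441, 0.0484 and 0.0219). In KH cells their differences were -0.33, -0.56 and -0.47 (adjusted p = 0.0407, 0.133 and 0.0608), from levels under 1 TPM.

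Rhox13 (ENSMUSG00000050197.5), known from testis and fetal gonad, rose under mTORi in DNMT3ABKO cells, the libraries through which it passed the filter. In KH cells it was at 0.442 and 0.446 TPM at 0 h, at 0.652 and 0.693 TPM at 72 h and at 0.529 and 0.287 TPM at 144 h. In DNMT3ABKO cells it was at 0.796 and 0.641 TPM at 0 h, at 2.64 and 3.49 TPM at 72 h and at 4.12 and 4.36 TPM at 144 h. It was called higher than at 0 h in DNMT3ABKO cells, by 1.24 at 72 h and 1.61 at 144 h (limma adjusted p = 0.000425 and 7.22e-05), and the difference between the lines was 0.25 at 0 h (adjusted p = 0.450), 1.27 at 72 h (adjusted p = 0.00112) and 1.90 at 144 h (adjusted p = 6.00e-05). The change from 0 h differed between the lines by 1.02 at 72 h and 1.65 at 144 h (adjusted p = 0.0400 and 0.00198). With the filter these contrasts called 5.23% and 8.59% of 15727 genes. No share was taken for them in the fit with no filter, from which the p-values of Rhox13 come. Rhox5, at 7.99% of its 0 h mean in DNMT3ABKO cells at 144 h, and Rhox13, at 590.3%, thus went opposite ways in the same libraries. The genes between Rhox6 and Rhox9 stayed low, with maxima of 0.539 TPM for Rhox7a, 0.0773 TPM for Rhox8 and 0.375 TPM for Rhox7b.

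**Figure D4:**
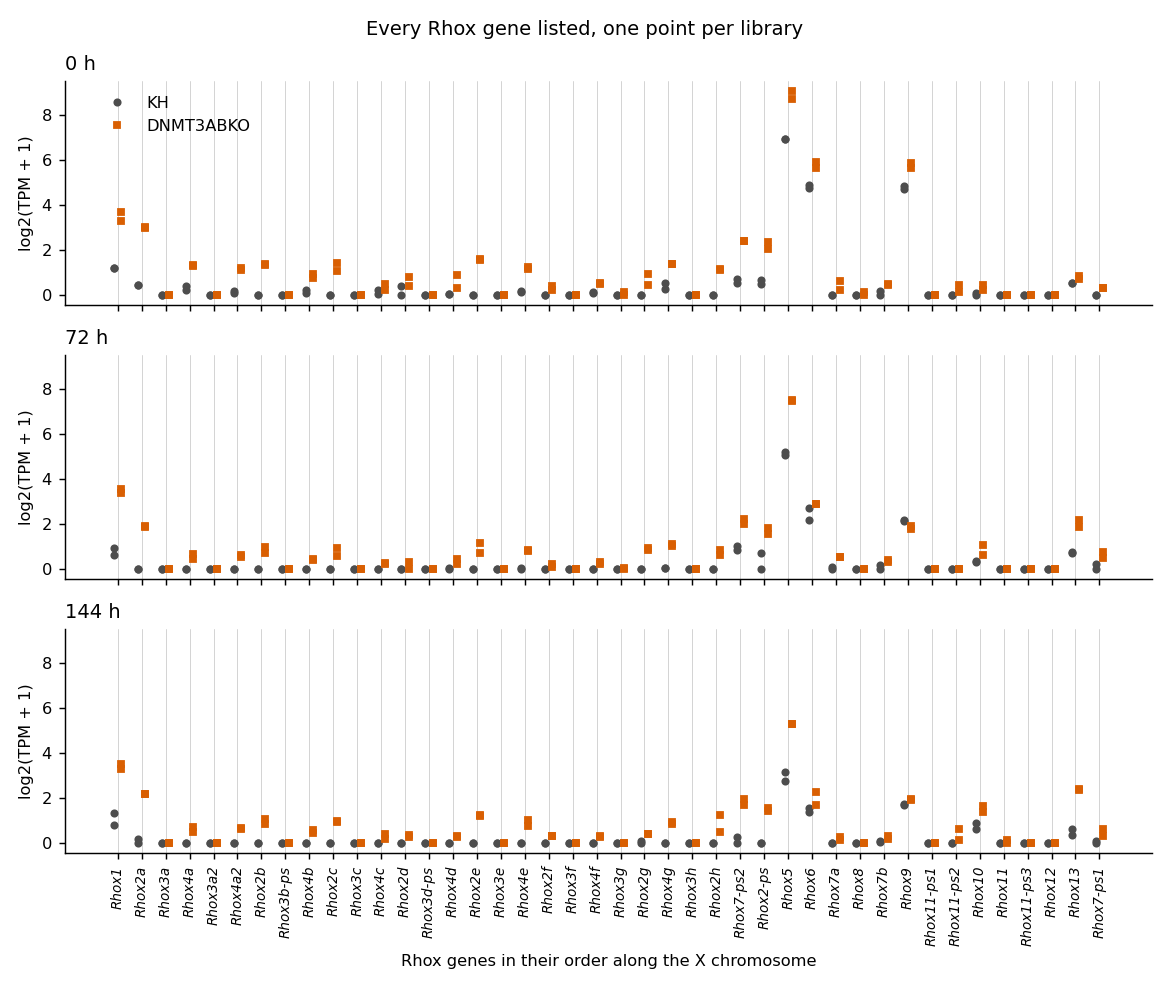
log2(TPM + 1) of every listed Rhox gene in its order along the X chromosome at 0 h (top), 72 h (middle) and 144 h (bottom), with 2 points per gene for KH (circles) and 2 for DNMT3ABKO (squares). Rhox5, Rhox6 and Rhox9 stand above the rest at 0 h, and by 144 h Rhox1 at 8.67 to 10.3 TPM in DNMT3ABKO cells exceeds Rhox6 and Rhox9.

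Promoter sequence was looked up for the cluster, since the members are known for methylation of their promoters. RefSeq windows of 250 bases before the start (GRCm38.p6) were at hand for 28 Rhox genes and for 1 of the 3 members, Rhox5. Its window, chrX:37754358-37754607 on the plus strand, ends at a RefSeq start that lies 50.2 kb before the gene start in the deposited files, so it belongs to a distal start. The window of Rhox1, chrX:37222259-37222508 on the minus strand, ends at the start in the files and is shown because Rhox1 differed between the lines as Rhox5 did. The CG dinucleotides, at which methylation is placed, are in capitals.
Rhox5: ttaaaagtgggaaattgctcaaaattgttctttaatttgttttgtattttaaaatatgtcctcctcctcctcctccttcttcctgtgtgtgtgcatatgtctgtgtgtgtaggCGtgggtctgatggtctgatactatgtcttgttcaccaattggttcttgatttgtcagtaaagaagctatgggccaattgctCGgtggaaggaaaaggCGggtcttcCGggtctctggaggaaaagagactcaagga
Rhox1: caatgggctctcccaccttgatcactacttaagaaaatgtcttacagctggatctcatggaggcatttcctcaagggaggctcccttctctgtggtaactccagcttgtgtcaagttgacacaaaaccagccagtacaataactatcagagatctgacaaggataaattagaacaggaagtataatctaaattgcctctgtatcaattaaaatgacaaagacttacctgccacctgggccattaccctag
The Rhox5 window held 4 CG and the Rhox1 window 0. The median was 6 CG over 32817 windows of all genes, with quartiles of 2 and 16, and 4.5 over the 28 Rhox windows, with a range of 0 to 10. At least 1 CG was present in 92.1% of all windows, and 37.8% held fewer than Rhox5. Of 3 motifs that contain a CG, searched on both strands after the sequences had been seen, CCGGAA was present in the Rhox5 window, in 8 of 28 Rhox windows and in 12% of all windows. Apart from Rhox5, these 8 windows belong to Rhox2 copies. CACGTG was in 5 Rhox windows, all of Rhox4 copies, and 6.02% of all. GGGCGG was in 8, of Rhox4 copies and Rhox12, and 32.7% of all. Neither of these 2 motifs was in the Rhox5 window. Windows of near copies are not independent, so no enrichment is read from the counts. These matches describe letters only.

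The cluster spans 1092 kb (chrX:37213804-38306028), and its neighbours were compared to see where the line difference ends. Gm9 (ENSMUSG00000073243.2; chrX:37209348-37211041, minus strand), the nearest gene ahead of the cluster that averaged 1 TPM or more, was at 2.65 and 3.36, 0 and 0.203, and 0.0797 and 0 TPM in KH cells and at 9.03 and 10.5, 1.91 and 2.20, and 2.24 and 2.00 TPM in DNMT3ABKO cells. It was higher in DNMT3ABKO cells by 1.43, 1.48 and 1.58 at 0, 72 and 144 h (limma adjusted p = 0.000165, 5.46e-05 and 2.15e-05) and fell from 0 to 144 h by 1.94 in KH and 1.78 in DNMT3ABKO cells (adjusted p = 2.70e-06 and 2.87e-06), as Rhox5 did in direction. Lamp2 (ENSMUSG00000016534.15), the nearest such gene on the other side and a lysosomal membrane protein gene, was at 33.7 to 48.9 TPM in KH and 24.6 to 50.7 TPM in DNMT3ABKO libraries, with differences of -0.14, -0.36 and -0.38 (adjusted p = 0.600, 0.135 and 0.0924). Of 17 tested protein-coding genes within 500 kb of the cluster, 1, 2 and 4 were called higher and 1, 0 and 0 lower at 0, 72 and 144 h. Of all genes, 4.92%, 9.26% and 11.0% were called higher and 4.14%, 10.0% and 15.5% lower. The lower gene was Zbtb33, named here after its values were seen, which encodes a methyl-CpG binding factor and lies within the span of the cluster (chrX:38189793-38197046). It was at 8.21 and 9.63 TPM in KH and 4.76 and 6.96 TPM in DNMT3ABKO cells at 0 h, a difference of -0.55 (adjusted p = 0.0429) whose call held in 3 of 17 alternatives (adjusted p of 0.00169 to 0.359, and 0.101 with the replicate block). The median differences of the 17 genes were -0.08, -0.05 and 0.02, against -0.05, -0.04 and -0.04 for all genes and -0.03, -0.03 and -0.02 for 579 genes of the X chromosome.

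Other genes known for promoter methylation differed in the same direction as Rhox5 for the most part. Their lists were chosen with earlier results of these data known, so the counts are a description and no independent support. The genes named from them were picked for the highest or lowest differences among those called at 144 h. Of these lists, 3 of 17 germline genes and 13 of 17 X-linked reproductive genes passed the filter on low values through the DNMT3ABKO libraries alone, so all listed genes were counted in the fit with no filter. Of 21 germline genes, 11, 14 and 15 were called higher and 2, 3 and 2 lower in DNMT3ABKO cells at 0, 72 and 144 h, with median differences of 0.69, 1.14 and 1.14. Of all genes in that fit, 2.17%, 5.44% and 7.68% were called higher and 1.57%, 3.81% and 6.57% lower, with medians of 0. At 144 h Fkbp6 and Dazl, which act in meiosis and germ cell development, were higher by 4.03 and 3.28 (limma adjusted p = 1.40e-06 and 4.51e-05), and Sycp3, a meiotic chromosome axis protein gene, was lower by a log2 difference of -1.06 (adjusted p = 0.00106). Of 23 X-linked reproductive genes, 16, 16 and 20 were higher and 0, 0 and 1 lower, with medians of 0.84, 1.22 and 1.87. At 144 h Xlr3a and Xlr3b, which are near copies with an uncertain split of reads, were higher by 4.63 and 4.05 (adjusted p = 2.54e-07 and 8.21e-07), and Esx1, a placental homeobox gene, was lower by a log2 difference of -0.76 (adjusted p = 0.0121).

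The regulators known or proposed for the cluster were counted in the filtered fit, where 4.92%, 9.26% and 11.0% of all genes were called higher and 4.14%, 10.0% and 15.5% lower. Of 18 tested genes of DNA methylation, 0, 2 and 1 were called higher and 5, 4 and 4 lower at 0, 72 and 144 h, Dnmt3a and Dnmt3b among the lower. The maintenance methyltransferase Dnmt1 differed by 0.18, -0.04 and -0.09, and its partner Uhrf1 by 0.23, 0.14 and 0.06. The DNA demethylases Tet1 and Tet2 differed by -0.23 and -0.30 at 144 h (adjusted p = 0.199 and 0.171), and rose from 0 to 144 h in KH cells by 1.04 and 0.94 (adjusted p = 8.27e-05 and 0.000459) and in DNMT3ABKO cells by 0.95 and 1.13 (adjusted p = 0.000104 for both), while Rhox5 fell. Of 15 tested genes of histone H3 lysine 9 methylation and locus silencing, 1, 0 and 0 were higher and 1, 1 and 4 lower, with Suv39h1 and Ehmt1 lower by log2 differences of -0.65 and -0.46 at 144 h (adjusted p = 0.000413 and 0.00215). Of 7 linker histone H1 genes, 0, 1 and 0 were higher and 0, 4 and 3 lower. Of 9 genes of ETS and SP1 family factors, 0, 0 and 0 were higher and 0, 0 and 1 lower.

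Cell types that could carry Rhox RNA were covered by marker lists, to be read against the same shares of 4.92%, 9.26% and 11.0% higher and 4.14%, 10.0% and 15.5% lower. Of 12 tested trophoblast genes, 0, 2 and 0 were called higher and 6, 5 and 8 lower in DNMT3ABKO cells, with medians of -0.43, -0.35 and -0.77, and Krt8 and Tead4 were lower by log2 differences of -1.78 and -1.12 at 144 h (adjusted p = 2.02e-06 and 0.000207). Of 9 tested primordial germ cell genes, 2, 0 and 0 were higher and 1, 4 and 3 lower, with Tfap2c lower by a log2 difference of -0.90 at 144 h (adjusted p = 0.000576). Of 8 tested primitive endoderm genes, 0, 0 and 0 were higher and 0, 2 and 2 lower. Of 18 tested fibroblast genes, 3, 0 and 2 were higher and 0, 2 and 1 lower, of 10 macrophage genes 0, 0 and 4 were higher and 0, 9 and 0 lower, and of 16 ES cell genes 0, 0 and 1 were higher and 0, 5 and 2 lower.

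Among 12582 named genes that averaged 1 TPM or more, the pattern of Rhox5 over the 12 libraries was most like that of Arl14epl, Htatip2, Aven, Dbnl and Ptprg, with Pearson r between 0.957 and 0.978. The first of these, Arl14epl, averaged 16.9 TPM at 0 h and 3.48 TPM at 144 h in KH cells, against 47.2 and 10.2 TPM in DNMT3ABKO cells. Rhox6 was most like Mrps12, Pcolce, Adamts2, Selenow and Vim (r between 0.982 and 0.985), and Rhox9 most like Pfdn1, Ndufb10, Aldh1l2, Ly6c1 and Cltb (r of 0.985 to 0.986). Vim, a gene of mesenchymal cells, had means of 587 and 142 TPM in KH and 796 and 141 TPM in DNMT3ABKO cells at 0 and 144 h. Among themselves, Rhox6 and Rhox9 had r of 0.961, Rhox5 and Rhox6 of 0.852 and Rhox5 and Rhox9 of 0.717. These values describe 12 libraries that share 3 time points and 2 lines, and carry no test.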

How the data were processed

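RNA was spiked with ERCC standards, depleted of ribosomal RNA (KAPA RiboErase) and sequenced. According to the submitters' processing notes the authors used cutadapt 2.4, STAR 2.7.3a and StringTie 2.0 with mm10, and the deposited values are TPM per gene of a GENCODE annotation, with 1 library per file and replicates kept apart. No spike-in rows were used here, so values were not scaled to RNA per cell. Rows that repeated an identifier were summed.

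Values were analysed as log2(TPM + 1). The 15727 genes that averaged 1 TPM or more were fitted with limma 3.58.1 (R 4.3.3; lmFit, eBayes with trend, all 6 groups in 1 fit, no block; same-numbered replicates did not deviate together), because TPM values are not counts. Tests were two-sided, and the call threshold was 0.05 after Benjamini-Hochberg adjustment over all of them. Groups were said not to overlap when both libraries of a group lay beyond both of the other.

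The members and lists were chosen with earlier results of these data known. Text names the members, other Rhox genes that averaged 1 TPM or more (the rest by range or sum), the nearest such gene on each side, 6 methylation genes, at most 2 called genes per direction from each of 12 lists (methylation, germline, X-linked reproductive, germ cell, linker histone, H3K9 silencing, ETS and SP1, trophoblast, primitive endoderm, fibroblast, macrophage, ES cell) and the 5 genes most like each member. Genes flagged within 500 kb were named afterwards. Outside this rule, Tpbpa, Prl3d1, Cdx2 and Hand1 were named as low genes of the trophoblast list. The alternatives tried were no filter (37364 genes), a pseudocount of 0.1 TPM, median-ratio scaling, a fit of the compared groups alone, a replicate block, a minimum log2 difference of 1, leaving out each library, summing Rhox6 and Rhox9 and adding 50 downstream bases to promoter windows. Sums of Rhox2 and Rhox4 copies, the motifs and the use of the fit with no filter for the other Rhox genes and for 2 lists were added after the values were seen. Promoters came from RefSeq (GRCm38.p6) and coding sequence from the mm10 reference. Python 3.11.15, pandas 2.3.3, NumPy 2.4.6, matplotlib 3.10.9 and Biopython 1.88 were used.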

Additional observations from a re-analysis of the deposited data

Results flagged for a closer look

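In the filtered fit, the change from 0 h differed between the lines, by the interaction contrast of limma, for 2 Rhox genes other than the members and for 2 neighbours of the cluster. Across all 15727 genes, 5.23% were called in this contrast at 72 h and 8.59% at 144 h.

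The values are on the log2(TPM + 1) scale, with p-values of the filtered fit for Sept6 and Ndufa1. Rhox13 and Rhox2a passed that filter through the DNMT3ABKO libraries, so their p-values are from the fit with no filter.

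Rhox13 rose more in DNMT3ABKO than in KH cells. The log2 difference was 1.02 at 72 h (limma adjusted p = 0.0400) and 1.65 at 144 h (adjusted p = 0.00198). At 144 h its call held in 17 of 17 alternatives, with adjusted p between 0.000364 and 0.00325. At 72 h it held in 13 of 17, with adjusted p between 0.0143 and 0.0661, and was lost with the pseudocount of 0.1, without either KH replicate at 72 h and without the second DNMT3ABKO replicate at 72 h. For Rhox2a the log2 change to 72 h differed between the lines by -0.68, which limma called in the filtered fit alone. With no filter it was not called (adjusted p = 0.0521). The difference was 0.81 with the pseudocount of 0.1. As a share of the 0 h mean, 0% was left in KH and 38.8% in DNMT3ABKO cells, so the sign of the difference depended on the scale. KH cells held 0.351 and 0.334 TPM of it at 0 h and were listed at 0 at 72 h. Its call in the filtered fit was lost in 11 of 17 alternatives. Among these were fits without any 1 of 7 libraries, namely each KH library at 0 h and 72 h, each DNMT3ABKO library at 72 h and the first DNMT3ABKO replicate at 0 h.

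Sept6, a septin gene within 500 kb of the cluster, was at 7.66 and 8.64, 4.29 and 4.65, and 4.72 and 4.61 TPM in KH cells and at 9.09 and 9.03, 8.80 and 8.15, and 8.38 and 8.15 TPM in DNMT3ABKO cells. The difference in its change was 0.65 at 72 h (adjusted p = 0.0161) and 0.57 at 144 h (adjusted p = 0.0212), called in 13 and 11 of 17 alternatives, with adjusted p between 0.0124 and 0.0818 and between 0.0130 and 0.0828. The 72 h call was lost without the first DNMT3ABKO replicate at 72 h, the second KH replicate at 0 h or the first KH replicate at 72 h, and the 144 h call without the second KH replicate at 0 h or any library at 144 h. Ndufa1, which encodes a subunit of respiratory complex I, was at 67.2 and 64.1 TPM at 0 h and 52.8 and 48.5 TPM at 144 h in KH cells and at 63.9 and 68.7 and 69.6 and 66.9 TPM in DNMT3ABKO cells. Its difference at 144 h was 0.41 (adjusted p = 0.0389), called in 5 of 17 alternatives, with adjusted p between 0.0121 and 0.147, and lost without any 1 library other than those of DNMT3ABKO at 0 h.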

How the results depend on the processing

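The directions of Rhox5 and Rhox6 were kept in every comparison and alternative run. Rhox9 at 72 h reversed between the lines when Rhox6 and Rhox9 were summed (0.18 in place of -0.30), where the sum itself replaces both genes. Summing also gave Rhox6 differences of 0.18 between the lines at 72 h, -3.42 for DNMT3ABKO 72 h and -2.63 for KH 72 h against 0 h, and Rhox9 differences of -3.97 and -3.42 for DNMT3ABKO 144 h and 72 h, -3.45 for KH 144 h and 0.44 between the lines at 144 h. With a pseudocount of 0.1, which widens differences of low genes, Rhox5 differed by 2.46 between the lines at 144 h and by -4.14 for KH 144 h; Rhox6 by -4.15, -3.90 and -2.60 for DNMT3ABKO 144 h, KH 144 h and KH 72 h; and Rhox9 by -4.17, -4.28, -3.49 and -2.92 for DNMT3ABKO 144 h and 72 h and KH 144 h and 72 h. The Rhox2a difference in the 72 h change reversed to 0.81 there. Median-ratio scaling, which removes a shift of 0.12 in the median of all genes, gave -1.52 for Rhox5 and -4.01 for Rhox9 in DNMT3ABKO 72 h against 0 h.

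Leaving out a library gave Rhox5 ranges of -3.78 to -3.42 (DNMT3ABKO 144 h), -1.56 to -1.20 (DNMT3ABKO 72 h), 1.77 to 2.13 and 2.12 to 2.52 (between lines at 0 and 144 h) and -4.17 to -3.77 (KH 144 h), and Rhox6 ranges of -4.10 to -3.48 (DNMT3ABKO 144 h), 0.21 to 0.83 and 0.20 to 0.71 (between lines at 144 and 72 h) and -2.64 to -2.13 (KH 72 h). Where this left 1 library in a group, that library was assumed to vary like the others.

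Of the 5 other tested Rhox genes, 4 passed the filter through the DNMT3ABKO libraries alone, so their counts only describe the processing. Among the 5, 3 rather than 1 fell in DNMT3ABKO cells at 72 h with median-ratio scaling, and 1 rather than 3 at 144 h with the pseudocount of 0.1. In KH cells, 2 rather than 1 fell at 72 h with the compared groups alone. With no filter, 16, 16 and 17 of 29 fitted genes were higher in DNMT3ABKO cells at 0, 72 and 144 h (2.17%, 5.44% and 7.68% of all genes). In that fit 2 rose at 144 h in DNMT3ABKO (17.2% of all genes) and 1 in KH cells (12.5%). In DNMT3ABKO cells 10 and 9 fell at 144 and 72 h (13.2% and 10.3%), and in KH cells 3 fell at 72 h (8.57%). With a minimum difference of 1, 0 fell at DNMT3ABKO 144 h, KH 144 h and KH 72 h. Leaving out libraries gave 1 to 3, 1 to 2, 0 to 3 and 1 to 2 that fell at DNMT3ABKO 144 h and 72 h and KH 144 h and 72 h, with 1 without the first DNMT3ABKO replicate at 144 h and 0 or 1 rather than 3 without a KH replicate at 0 h or 144 h. Same-numbered replicates did not deviate together (r of -0.104 to 0.0996), and with the replicate block Rhox5 differed between the lines by 1.96, 2.38 and 2.33, Rhox6 by 1.01, 0.52 and 0.59 and Rhox9 by 0.92, -0.34 and 0.18. The block gave 2 rather than 3 that fell in KH cells at 144 h (Rhox2-ps, adjusted p = 0.0654) and ended the calls of the differences in response of Rhox2a at 72 h (0.0702) and Ndufa1 at 144 h (0.0638). The causes of these shifts were not tested beyond the constructions named. Read depth is unknown and limits what can be said of genes near 0.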
